A study of Homo sapiens with 6 samples.

Results

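The precursor families of microRNAs (miRNAs) in BEAS-2B cells are described here, as 156 of the 4212 rows in the 6 small RNA tables. They are all rows that the tables class as precursor, each with an Rfam family identifier and a description such as mir-221, except the mir-21 family. A family that was absent from a library's table was taken as a count of 0. A row of this class stands for a whole family, so it does not separate, for example, MIR30A from MIR30E. Which reads were assigned to such a row is not given in the sources used here.

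BEAS-2B is an established immortalised line of human bronchial epithelial cells. The libraries were 3 from cells given the plasmid pcDNA-PRMT1, labelled as PRMT1 over-expression, and 3 from cells with the pcDNA3.1 plasmid alone, labelled as control. Both plasmids were present for 48 h, and the comparison asked how small RNA of these cells responds to PRMT1, an enzyme that methylates arginine residues of proteins. Whether the replicates came from separate cultures is not stated. A p-value here sets the difference between groups against the spread of these libraries, and that spread may be only technical. The level of PRMT1 itself was not analysed here.

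A miRNA is first transcribed as part of a longer RNA that folds into a hairpin. The nuclear enzyme DROSHA cuts the hairpin free, DICER cuts off its loop in the cytoplasm, and one arm of the stem, named 5p or 3p, is kept by an Argonaute protein as the mature miRNA of about 22 bases. Bases 2 to 8 of the mature miRNA, the seed, pair with target messenger RNAs. Rfam groups hairpins that share ancestry and fold, and its families hold members from animals and plants.

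Families and mature names are linked here by number, so that mir-30 is set beside miR-30a to miR-30e. Of the 156 families, all but 31 had a mature human name of the same number in the tables. Of the 156, 116 matched a human hairpin of the same number among the RefSeq hairpins at hand. That set was incomplete: mir-183, mir-124, mir-155 and mir-22 had mature human names but no hairpin in it. The count of 116 is therefore not a count over all of RefSeq. The hairpins below, from RefSeq on GRCh38.p14, belong to families on which the results turn, with the bases of the listed mature miRNAs in capitals. The tables give no position of a read on its hairpin, so a precursor count does not tell whether a read covered an arm, the loop or a flank. For MIR221 the 3p arm alone was listed, although the data held 2 miR-221 names, and 87 of its 110 bases lie outside that arm. For MIR30A the 5p and 3p arms were listed, with 27 of 71 bases outside, and for MIR222 likewise, with 67 of 110 outside. The value of MIR221 is therefore not comparable with the others.

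The families of highest count were mir-221 and mir-30, and the hairpin of MIR222 is shown because its mature miRNA shares the seed of miR-221-3p.
MIR221 hairpin, chrX:45746157-45746266, minus strand: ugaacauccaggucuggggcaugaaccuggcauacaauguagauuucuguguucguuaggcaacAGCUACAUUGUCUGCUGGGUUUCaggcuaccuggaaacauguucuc
MIR222 hairpin, chrX:45747015-45747124, minus strand: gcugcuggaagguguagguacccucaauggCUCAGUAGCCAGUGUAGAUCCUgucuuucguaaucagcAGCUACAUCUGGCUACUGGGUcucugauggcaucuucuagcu
MIR30A hairpin, chr6:71403551-71403621, minus strand: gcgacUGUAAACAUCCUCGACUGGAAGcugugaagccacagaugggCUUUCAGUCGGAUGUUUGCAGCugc
MIR30E hairpin, chr1:40754355-40754446, plus strand: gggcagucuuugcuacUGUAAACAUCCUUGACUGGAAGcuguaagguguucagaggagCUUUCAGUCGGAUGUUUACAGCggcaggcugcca

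MIR23A, MIR27A and MIR24-2 lie side by side on chromosome 19, and their families were among the 10 of highest level.
MIR23A hairpin, chr19:13836587-13836659, minus strand: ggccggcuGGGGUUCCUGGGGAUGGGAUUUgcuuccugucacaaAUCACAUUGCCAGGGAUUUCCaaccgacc
MIR27A hairpin, chr19:13836440-13836517, minus strand: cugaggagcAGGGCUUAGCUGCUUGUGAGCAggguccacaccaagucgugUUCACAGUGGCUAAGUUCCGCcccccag
MIR24-2 hairpin, chr19:13836287-13836359, minus strand: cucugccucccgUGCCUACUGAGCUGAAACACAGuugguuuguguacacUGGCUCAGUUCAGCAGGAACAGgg

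The let-7 hairpin stands for the family with the lowest precursor to mature ratio among the 64 families for which one was taken, and the other 3 for families that differed by over 5-fold between libraries.
MIRLET7A1 hairpin, chr9:94175957-94176036, plus strand: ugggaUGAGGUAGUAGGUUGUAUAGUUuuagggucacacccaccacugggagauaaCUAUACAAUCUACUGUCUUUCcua
MIR137 hairpin, chr1:98046070-98046171, minus strand: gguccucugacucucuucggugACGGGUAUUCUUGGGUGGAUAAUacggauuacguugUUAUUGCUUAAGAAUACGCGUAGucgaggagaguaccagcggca
MIR96 hairpin, chr7:129774692-129774769, minus strand: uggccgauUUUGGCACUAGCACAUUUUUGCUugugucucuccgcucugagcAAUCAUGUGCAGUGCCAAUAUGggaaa
MIR885 hairpin, chr3:10394489-10394562, minus strand: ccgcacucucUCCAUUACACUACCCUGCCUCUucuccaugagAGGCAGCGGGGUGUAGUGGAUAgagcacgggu

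The mature miRNAs of the leading families share their seeds, in capitals here, within a family. The bases outside the seed tell the members apart.
miR-221-3p: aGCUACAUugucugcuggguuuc
miR-222-3p: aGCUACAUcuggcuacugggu
miR-30a-5p: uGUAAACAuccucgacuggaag
miR-30c-5p: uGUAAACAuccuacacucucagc
miR-30e-5p: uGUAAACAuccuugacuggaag
miR-23a-3p: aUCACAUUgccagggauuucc
miR-23b-3p: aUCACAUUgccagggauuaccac
miR-27a-3p: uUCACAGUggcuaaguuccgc
miR-27b-3p: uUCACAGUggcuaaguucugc
let-7a-5p: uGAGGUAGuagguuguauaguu
let-7i-5p: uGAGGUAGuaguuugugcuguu

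Library totals ran from 23.95 to 25.79 M counts in PRMT1 and from 24.01 to 25.09 M in control libraries. Known mature miRNAs took 11.91 to 14.43 M of these in PRMT1 and 11.54 to 16.42 M in control libraries. Control library 2 stood apart: the mir-21 family, which is no member, held 0.308% to 0.345% of all counts in PRMT1 libraries, against 0.228%, 2.89% and 0.224% in control libraries 1 to 3. Mature markers of epithelial cells, led by the miR-200 family, summed to 6019 to 7913 counts per 1000000 (CPM) in PRMT1 and 6683 to 8957 CPM in control libraries. All 7 of them were detected, but nearly all of the sum came from miR-200a, miR-200b and miR-429. MiR-205 stood at only 4.92 to 8.38 CPM in PRMT1 and 3.30 to 5.27 CPM in control libraries, and miR-203a was lower still in every library. MiR-141 stood at 10.13 to 22.66 CPM in PRMT1 and 13.04 to 19.68 CPM in control libraries. MiR-200c stood at 32.05 to 45.62 CPM in PRMT1 and 33.66 to 53.43 CPM in control libraries. Among other cell types, endothelial miR-126 stood at 1213 to 2088 CPM in PRMT1 and 1479 to 1796 CPM in control libraries. Neural markers summed to 177.2 to 263.8 CPM in PRMT1 and 195.3 to 255.5 CPM in control libraries. Blood markers summed to 91.7 to 98.25 CPM in PRMT1 and 83.45 to 135 CPM in control libraries. Muscle, liver and fibroblast markers had lower sums. The pluripotency markers summed to at most 0.120 CPM in PRMT1 and 0.130 CPM in control libraries.

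Precursor families were a small and similar part of every library. They held 1.74%, 1.47% and 1.49% of all counts in PRMT1 libraries 1 to 3, against 1.53%, 1.71% and 1.54% in control libraries 1 to 3. The groups overlapped, with PRMT1 library 1 highest and PRMT1 library 2 lowest. The difference, PRMT1 minus control, was -0.0243 percentage points, from means of 1.57% ± 0.15 in PRMT1 and 1.59% ± 0.0990 in control libraries (SD, n = 3 each, two-sided exact permutation p = 0.6). The smallest p that 3 against 3 libraries allow is 0.1. In such bulk libraries, fewer cells with a precursor and less of it in each cell cannot be told apart. Without control library 2 the difference was 0.0328, and as a percentage of mature counts it was 0.0668.

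Of the 156 families, 83 were detected in all 6 libraries, 40 in 2 to 5 and 33 in 1 library. Between 106 and 116 families were detected in a PRMT1 library, and 115 or 116 in a control library. Counts were concentrated in few families: 9 averaged at least 10000 counts, 29 at least 1000, and 84 fewer than 10. The 10 leading families held 83.1% to 84.2% of the precursor counts in PRMT1 and 81.62% to 84.97% in control libraries. Levels below are in CPM of all named rows, scaled between libraries with trimmed mean of M-values (TMM) factors. They have no length term and families differ in the number of their hairpins, so an order of families is an order of reads and not of molecules.

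The family mir-221, whose mature miRNAs restrain the cell cycle inhibitor p27, led the precursors. It stood at 4987, 4246 and 5142 CPM in PRMT1 libraries 1 to 3, against 4412, 5159 and 3765 CPM in control libraries 1 to 3. On this scale the groups overlapped, with the highest and the lowest value both in control libraries. Relative to named rows without TMM, mir-221 was higher in PRMT1 without overlap (6.95% of all rows). The same held relative to mature counts (5.67% of all rows). On both of these scales the lowest PRMT1 library was only just above control library 1. The mir-30 family, whose miRNAs are abundant in epithelia, stood at 5519, 4591 and 3000 CPM in PRMT1 libraries and 3944, 5248 and 3592 CPM in control libraries. Here the highest and the lowest value were both in PRMT1 libraries. The means of mir-221 (4791 ± 478.6 CPM in PRMT1, 4445 ± 697.5 CPM in control libraries) and of mir-30 (4370 ± 1274 CPM in PRMT1, 4262 ± 872.7 CPM in control libraries) differed by less than the SDs, so their order is not set.

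The families mir-23, mir-27 and mir-24 are encoded next to each other, in one cluster on chromosome 19 and another on chromosome 9, and each cluster is transcribed as 1 RNA. Their levels followed different patterns over the libraries. Mir-27 stood at 2948, 2001 and 3620 CPM in PRMT1 libraries, against 3036, 3078 and 3097 CPM in control libraries. The control values lay close together, inside the range of the PRMT1 values. Mir-23 stood at 2383, 2163 and 2712 CPM in PRMT1 libraries, against 3226, 3644 and 3375 CPM in control libraries, with every PRMT1 library below every control library. Mir-24 stood at 839.8, 1131 and 756.4 CPM in PRMT1 libraries, against 666.1, 1015 and 2256 CPM in control libraries, with control library 3 far above the others.

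Next in order came families of epithelial and neural miRNAs and of the miR-17-92 group. The joint family mir-8/mir-141/mir-200, whose miRNAs maintain epithelial identity by restraining ZEB1 and ZEB2, stood at 1416, 1258 and 1166 CPM in PRMT1 libraries, against 1220, 1745 and 1010 CPM in control libraries. Mir-181, a family known from lymphocyte development, stood at 1017, 1078 and 991.1 CPM in PRMT1 libraries, against 921.2, 1564 and 959.2 CPM in control libraries. Mir-138, a family abundant in neurons, stood at 819.9, 893.4 and 1029 CPM in PRMT1 libraries, against 898.7, 1142 and 800.5 CPM in control libraries. In all 3 families control library 2 was highest and the groups overlapped. Mir-92, part of the miR-17-92 group that promotes proliferation, averaged 806.3 ± 202.4 CPM in PRMT1 and 855.3 ± 23.91 CPM in control libraries. Mir-26, which restrains growth genes, averaged 573.2 ± 58.46 CPM in PRMT1 and 686.4 ± 80.60 CPM in control libraries (SD, n = 3 each). The families from mir-8/mir-141/mir-200 to mir-92 overlapped with their neighbours in the order.

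**Figure D1:**
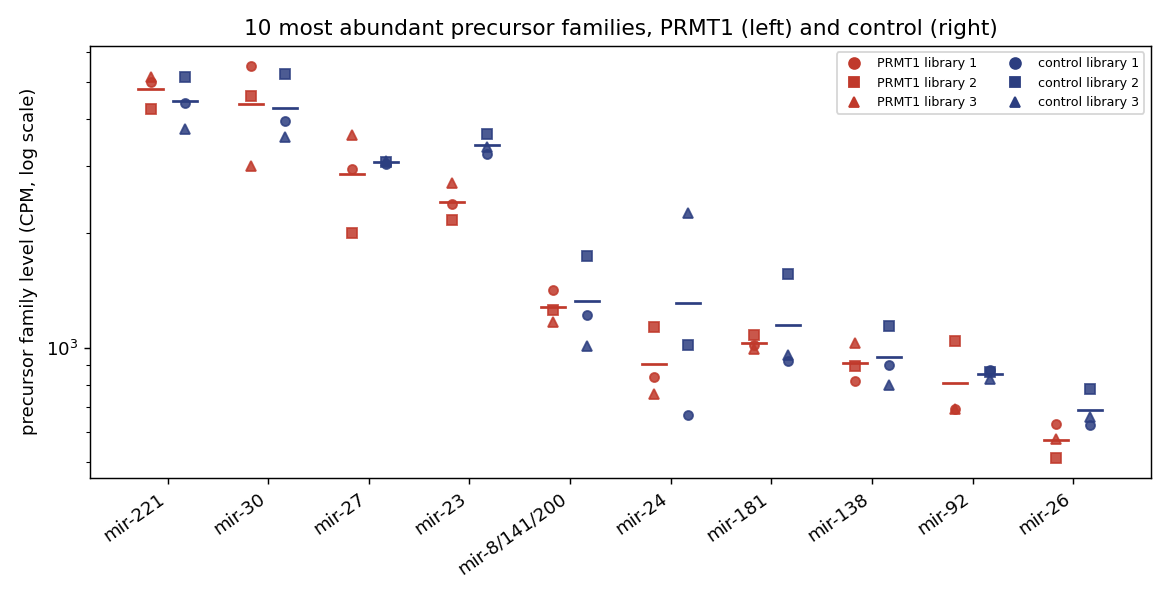
Levels of the 10 most abundant precursor families in CPM (log scale), with PRMT1 libraries left and control libraries right within each family, 1 symbol per library number and a line at each group's mean. In mir-23 the PRMT1 libraries (2163 to 2712 CPM) lie below the control libraries (3226 to 3644 CPM), and in mir-24 control library 3 (2256 CPM) lies above the other 5.

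Of the 156 families, 70 passed the filter on low counts, and they held 99.96% of the precursor counts. The other 86 had at most 57 counts in any library. Among the 70, the highest library was a median 1.88 times the lowest. In 37 families that range was under 2-fold, among them 22 of the 29 families with at least 1000 counts on average. In 10 families it was over 5-fold: mir-137, mir-33, mir-96, mir-885, mir-1937, mir-263, mir-611, mir-199, mir-101 and mir-153. Of these, mir-96, mir-885, mir-1937, mir-263, mir-611, mir-101 and mir-153 were named after their values were seen, as were the families below that belong to no list and lead no ranking.

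Mir-137, a family enriched in neurons, had the widest spread. It had 57, 59 and 34 counts in PRMT1 libraries 1 to 3, against 38, 10477 and 38 counts in control libraries 1 to 3. Control library 2 alone was high, and the other 5 libraries lay between 2.23 and 3.54 CPM. The mature miR-137 counts were 8225, 8482 and 6012 in PRMT1 libraries, against 8296, 11149 and 5598 in control libraries. They too were highest in control library 2, with a range of 2.17-fold after scaling. The ratio of precursor to mature counts was 0.00566 to 0.00696 in PRMT1 libraries, against 0.00458, 0.940 and 0.00679 in control libraries 1 to 3. Smaller families were also highest in control library 2. Mir-132 stood at 5.51 to 8.46 CPM in PRMT1 libraries, against 6.14, 26.71 and 5.96 CPM in control libraries 1 to 3. Mir-190 had 0 to 3 counts in PRMT1 libraries, against 0, 57 and 2 in control libraries, and mir-203 had 0 to 6 counts in PRMT1 libraries, against 3, 43 and 2 in control libraries. Mir-486, a red blood cell family, had 1 to 6 counts in PRMT1 libraries, against 2, 26 and 1 in control libraries.

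Mir-96 is encoded with mir-182 and mir-183 in 1 cluster on chromosome 7, a cluster known from sensory cells. It stood at 36.75, 7.79 and 42.87 CPM in PRMT1 libraries, against 4.20, 36.63 and 6.28 CPM in control libraries. Each group held high and low libraries, with a range of 10.2-fold. Over the same libraries the range was 1.75-fold for mir-182 and 1.56-fold for mir-183, and 2.37-fold for the mature miR-96 names. Mir-33, which lies in the genes of the sterol regulators SREBF1 and SREBF2 and restrains cholesterol export, had 706, 108 and 661 counts in PRMT1 libraries, against 254, 161 and 219 counts in control libraries. PRMT1 libraries 1 and 3 were above, and PRMT1 library 2 below, every control library.

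Mir-885 had precursor reads with almost no mature ones. It stood at 0.425, 0 and 47.46 CPM in PRMT1 libraries, against 43.75, 9.99 and 14.76 CPM in control libraries, and its mature names had 0 to 2 counts in any library. PRMT1 library 3 and control library 1 were the highest. Mir-7 had the opposite pattern, in that the mature miR-7 names ranged over 12.2-fold (6114, 11585 and 29112 counts in PRMT1 libraries, against 2503, 26106 and 5476 counts in control libraries) and the precursor family over 2.30-fold.

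**Figure D2:**
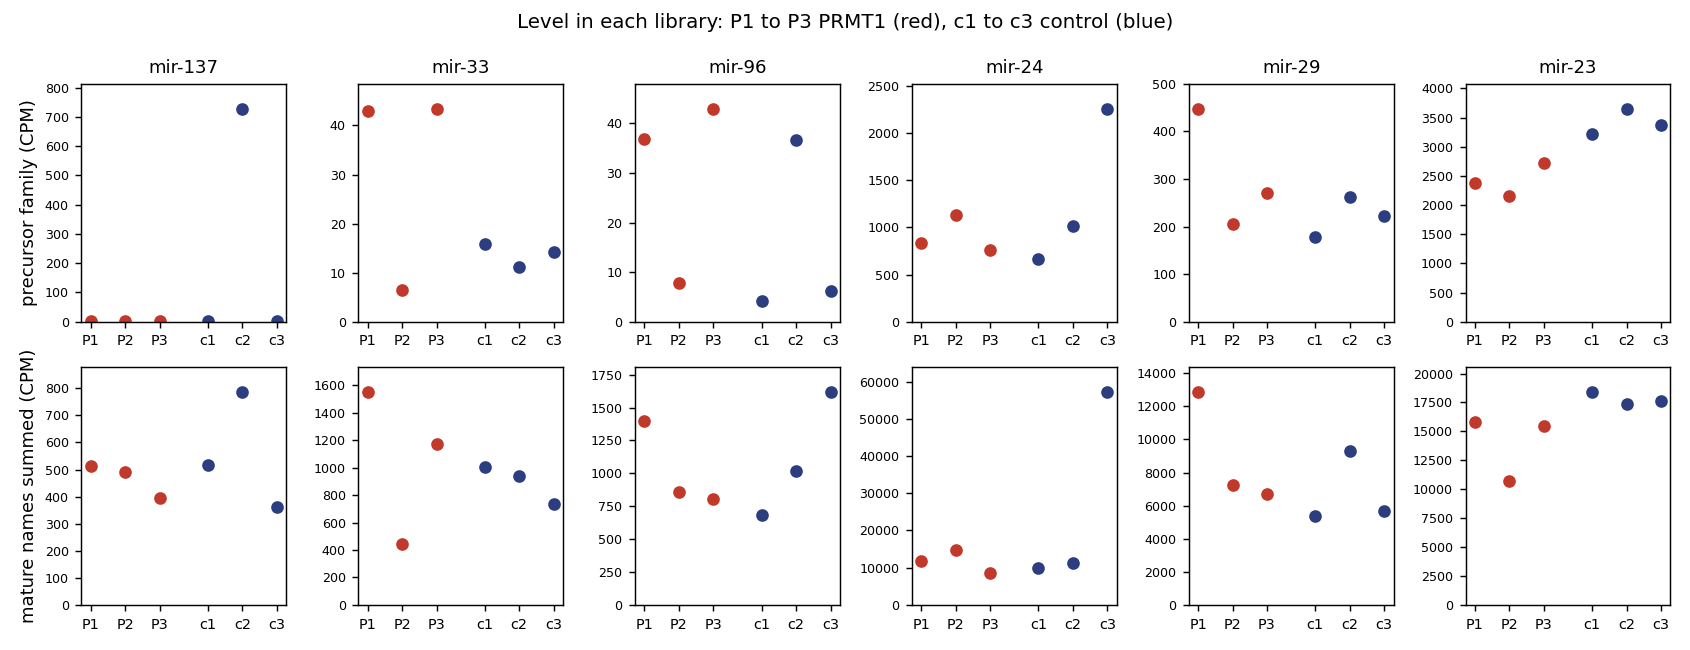
Level in each library (P1 to P3 PRMT1, c1 to c3 control, in CPM from 0) of 6 precursor families in the upper row and of the summed mature miRNAs of the same number in the lower row. Mir-137 is high in control library 2 alone. Its mature miRNAs are also highest there, but over a much narrower range. Mir-24 is high in control library 3 in both rows.

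Which library was highest depended on the scale. With TMM scaling control library 2 was the highest of 6 in 32 of the 70 families, relative to all counts in 20, relative to named rows in 8 and relative to mature counts in 6. TMM factors were 1.04 to 1.09 in PRMT1 libraries, against 1.04, 0.749 and 1.07 in control libraries 1 to 3. The 4 summed rows that name no RNA held 34.3% to 40.4% of counts in PRMT1 libraries, against 37.6%, 23.3% and 39.9% in control libraries 1 to 3. The part of these rows and of the mir-21 family in the levels of control library 2 was not tested.

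Precursor reads were fewer than mature reads in most families. Over all families with a mature name of the same number, precursor counts were 8.44%, 9.84% and 8.86% of the mature counts in PRMT1 libraries 1 to 3, against 8.16%, 9.66% and 7.86% in control libraries 1 to 3. The groups overlapped, with library 2 the highest in each. The means were 9.05% ± 0.722 in PRMT1 and 8.56% ± 0.966 in control libraries (SD, n = 3 each). The log2 ratio differed by 0.08 (two-sided exact permutation p = 0.5), while the median over families gave -0.02.

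A ratio per family was taken for the 64 families with at least 10 counts on average and at least 10 mature counts in every library. The median over families was 0.0852 precursor counts per mature count. The ratio was above 1 in 4 families, 0.1 to 1 in 24, and under 0.1 in 36, of which 6 lay under 0.01. Families that gave mostly 3p mature reads had a median ratio of 0.118 (28 families), and those with mostly 5p reads 0.0639 (34 families). Across the 64 families, Pearson's r of log10 precursor and log10 mature counts was 0.794 to 0.811 in PRMT1 and 0.767 to 0.826 in control libraries. Both counts come from the same library and depth, and families are not independent replicates.

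The highest ratio was that of mir-124, the main miRNA family of neurons. The precursor family stood at 51.15, 43.56 and 91.77 CPM in PRMT1 libraries, against 36.41, 37.74 and 49.40 CPM in control libraries. Its mature names stood at 12.07, 10.79 and 32.90 CPM in PRMT1 libraries, against 12.85, 10.50 and 11.60 CPM in control libraries. The ratio was 2.78 to 4.36 in PRMT1 and 2.82 to 4.26 in control libraries, so precursor reads outnumbered mature reads in all 6 libraries. Mir-133, a muscle family, had a ratio of 1.08 to 1.46 in PRMT1 and 1.18 to 1.62 in control libraries, at 74 to 103 mature counts. Mir-30 had a ratio of 1.24 to 1.51 in PRMT1 and 1.08 to 1.71 in control libraries.

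For mir-221 the ratio turned on which mature names were counted. Against miR-221 alone it was 1.38, 1.42 and 1.54 in PRMT1 libraries, against 1.34, 0.914 and 1.18 in control libraries. Every PRMT1 value was above every control value, as for 4 of the 64 families (6.25%, mir-221, mir-146, mir-103/107 and mir-187), whereas 2 (3.12%, mir-451 and mir-1306) lay the other way. The deposited family label adds miR-222 to miR-221, and with it the median ratio over libraries was 0.265 rather than 1.36. With the label the ratio was 0.300, 0.256 and 0.286 in PRMT1 libraries, against 0.273, 0.238 and 0.233 in control libraries, and the groups overlapped. Likewise the median ratio of mir-10 was 0.127 against miR-10 and 0.0111 against the label, and that of mir-17 was 0.105 against miR-17 and 0.0136 against the label.

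Let-7, whose miRNAs restrain growth genes such as those of the RAS family, had the lowest ratio of the 64. It had 2071, 1641 and 1652 precursor counts in PRMT1 libraries, against 1589, 2686 and 1130 in control libraries. Its mature names summed to 1491096, 1086984 and 1130884 counts in PRMT1 libraries, against 1214220, 1456805 and 996795 in control libraries. The ratio was 0.00139 to 0.00151 in PRMT1 and 0.00113 to 0.00184 in control libraries. The next lowest median ratios were 0.00213 for mir-374, 0.00307 for mir-196, a family from the HOX gene clusters, and 0.00527 for mir-190. With mir-374 the ratio rests on 6 to 28 counts, and with mir-190 on 0 to 57.

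Some abundant mature miRNAs had almost no precursor reads and fell below the minimum for a ratio. Of the 84 families that averaged under 10 counts, 6 had at least 10000 mature counts on average, which were mir-22, mir-423, mir-34, mir-15, mir-25 and mir-224. Mir-34, a family induced by p53, had 1, 4 and 1 precursor counts in PRMT1 libraries, against 0, 6 and 3 in control libraries, beside 60223, 49341 and 53707 mature counts in PRMT1 and 57147, 59345 and 48778 in control libraries. The highest count of any of these 6 families was 14. A count of 0 allows up to 3 counts, or 0.116 to 0.125 CPM of all counts, by counting error alone.

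**Figure D3:**
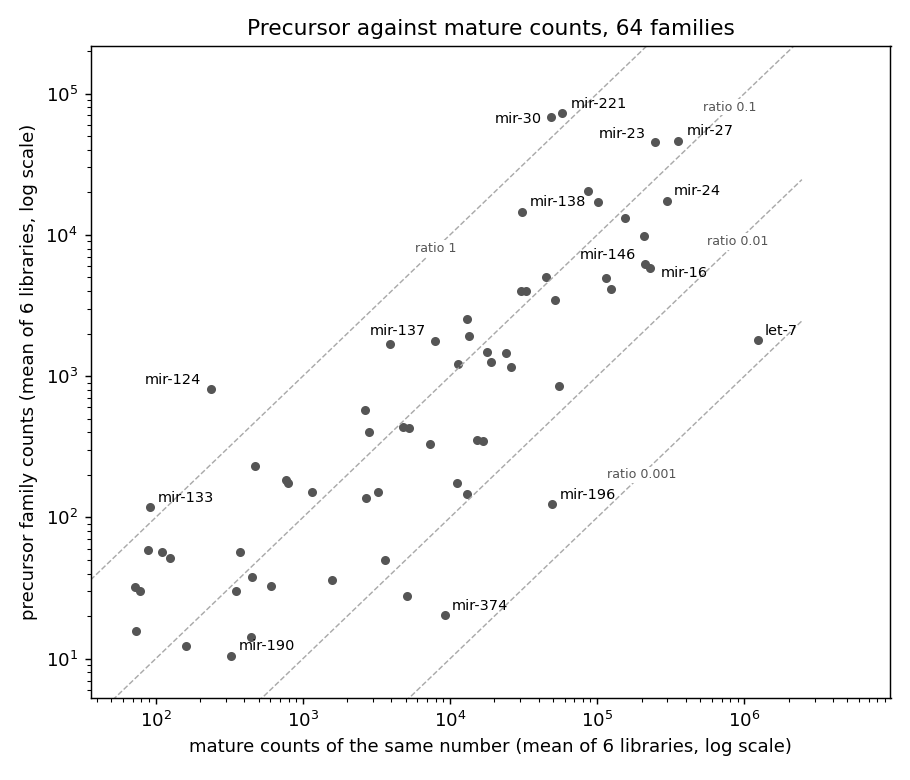
Precursor counts against summed mature counts of the same number for 64 families (means of 6 libraries, log axes), with dashed lines at 4 ratios. Mir-124, mir-133, mir-221 and mir-30 lie above the line of equal counts, and let-7 lies near 0.001.

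On the TMM scale, precursor and mature levels were highest in the same library for some families and in different libraries for others. The comparison took 50 families with at least 50 precursor counts on average and at least 50 mature counts in every library. Among them the same library was highest in 24 and the same library was lowest in 22. Mir-24 and mir-29 had the same highest library in both readouts. The mature miR-24 names had 188533, 253327 and 132437 counts in PRMT1 libraries, against 160562, 158610 and 881480 in control libraries, so control library 3 was high in both. Mir-29, which restrains collagen genes, had 7353, 3437 and 4128 precursor counts in PRMT1 libraries, against 2855, 3770 and 3434 in control libraries, and PRMT1 library 1 was high in both.

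No precursor family passed the test of PRMT1 against control. With edgeR's quasi-likelihood test and Benjamini-Hochberg adjustment over all 1712 rows tested, 0 of 70 families passed at 0.05, against 0% of all rows, and the lowest adjusted p was 0.9997. DESeq2 called 0 of the 70 families and 8 of all rows (0.467%), and limma-voom called 0 of each. At an unadjusted edgeR p under 0.05 there were 2 families, mir-23 and mir-137, or 2.86%, against 3.5% of all rows. Fold changes of 1 or more on the log2 scale, in either direction, were found for 2 of the 70 families, mir-137 and mir-33, against 12.7% of all rows. The median log2 fold change was -0.05 over the families, 32 above and 38 below 0, and 0.00 over all rows. The median SE was 0.330 over the families and 0.258 over the 29 abundant ones.

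In 6 of the 70 families every PRMT1 library was below every control library, or 8.57%, against 4.73% of all rows. In 0 families it was the reverse, against 3.56% of all rows, and in either direction the groups did not overlap in 8.29% of all rows. The 6 were mir-23, mir-378, mir-194, mir-155, mir-192/215 and mir-7, and 0 of them passed the adjusted test. This separation depended on the scale, and control library 2 had the lowest TMM factor, 0.749. Relative to named rows without TMM, mir-194 alone of the 70 families was lower without overlap (1.05% of all rows), and 9 families were higher (6.95% of all rows). The 9 were mir-10, mir-219, mir-128, mir-221, mir-31, mir-126, mir-451, mir-193 and mir-500. Relative to mature counts the same count held, 1 lower (1.05% of all rows), with 5 higher (5.67% of all rows). The 5 were mir-10, mir-219, mir-221, mir-126 and mir-193. Relative to all counts, mir-23, mir-378, mir-194 and mir-7 were lower without overlap (2.98% of all rows) and 0 were higher (4.5% of all rows). With scaling by library size alone the median log2 fold change of all rows moved to 0.15 and 45 of the 70 families lay above 0. These counts on other scales were added after the values were seen.

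Mir-23 had the smallest unadjusted p. It averaged 2419 ± 276.6 CPM in PRMT1 and 3415 ± 211.6 CPM in control libraries (SD, n = 3 each). Its log2 fold change was -0.50 (SE 0.17, unadjusted p = 0.0258, edgeR adjusted p = 0.9997). That value ran from -0.52 to -0.41 when each library was left out and was -0.34 with scaling by library size alone. On the TMM scale the mature miR-23 names also did not overlap between groups, at 15780, 10710 and 15450 CPM in PRMT1 libraries, against 18380, 17370 and 17660 CPM in control libraries (log2 -0.35, SE 0.20). Relative to all counts these groups overlapped, with 252391 of 24.04 M counts in PRMT1 library 1 above 246544 of 25.09 M in control library 2. MiR-23a-3p and miR-23b-3p, printed above, share their seed and nearly all of their sequence, and how reads were divided between such names was not given in the sources used here.

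Of the other families of smallest p below 0, mir-378 stood at 47.14, 47.81 and 40.44 CPM in PRMT1 libraries, against 65.18, 66.19 and 57.42 CPM in control libraries (log2 -0.48, SE 0.22). Its mature names, led by miR-378a-3p from an intron of the mitochondrial regulator PPARGC1B, stood at 2640, 1853 and 2237 CPM in PRMT1 libraries, against 7595, 2745 and 3865 CPM in control libraries (log2 -1.08, SE 0.40). On this scale the groups overlapped in neither. Mir-194, which is encoded beside mir-192 and mir-215, stood at 24.30, 14.44 and 27.99 CPM in PRMT1 libraries, against 32.03, 40.45 and 28.29 CPM in control libraries (log2 -0.59, SE 0.33). The groups did not overlap, though PRMT1 library 3 was only just below control library 3, and without PRMT1 library 2 the log2 fold change was -0.34. The log2 fold change of mir-137 was -6.31 (SE 2.41) and rested on control library 2, without which it was 0.35.

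Of the families of smallest p above 0, mir-33 was at 1.17 on the log2 scale (SE 0.68), mir-124 at 0.59 (SE 0.36), mir-219, a family of oligodendrocytes, at 0.57 (SE 0.43) and mir-29 at 0.48 (SE 0.35). On the TMM scale the groups overlapped in all 4. Mir-219, at 17 to 51 counts, was higher in PRMT1 without overlap relative to named rows without TMM (6.95% of all rows). The same held relative to mature counts (5.67% of all rows). Without PRMT1 library 3 the value of mir-124 was 0.27, without PRMT1 library 1 that of mir-29 was 0.11, and without control library 2 that of mir-219 was 0.90. The mature names gave 0.24 (SE 0.46) for miR-33, 0.67 (SE 0.49) for miR-124, 0.39 (SE 0.32) for miR-219 and 0.40 (SE 0.35) for miR-29.

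Among the 10 most abundant families, the log2 fold changes apart from that of mir-23 ran from -0.53 (SE 0.47) for mir-24 to 0.11 (SE 0.19) for mir-221. The value of mir-24 was 0.18 without control library 3. Mir-30 was at 0.04 (SE 0.28), mir-8/mir-141/mir-200 at -0.05 (SE 0.25) and mir-26 at -0.26 (SE 0.20).

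**Figure D4:**
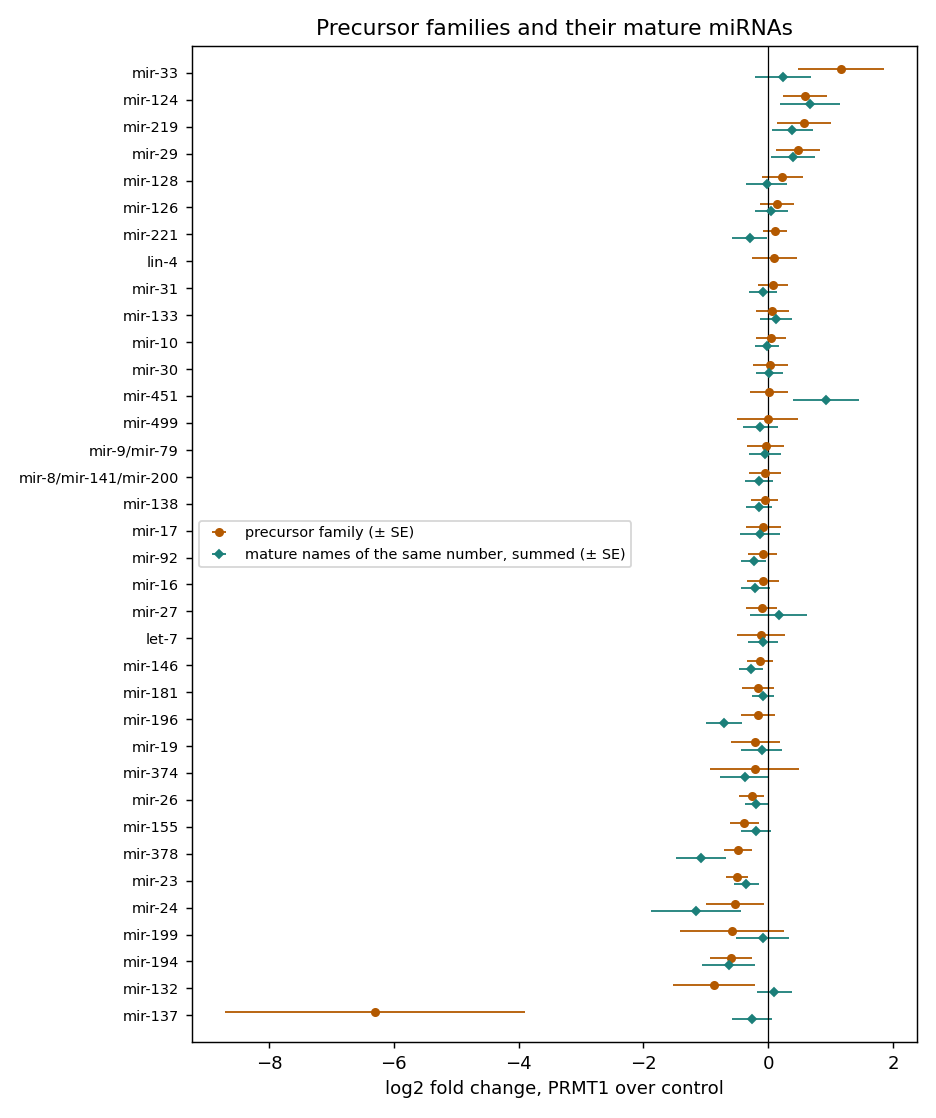
Log2 fold changes, PRMT1 over control, with SE, of 36 named precursor families (circles) and of the summed mature miRNAs of the same number (diamonds). Mir-23 is at -0.50, mir-33 is at 1.17 and mir-137, high in control library 2 alone, is at -6.31.

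By function, families of growth control gave small differences. Of the lists for proliferation, 7 families were found and 5 tested (mir-221, mir-92, mir-16, mir-17 and mir-19), with 0 past the test, 1 above 0 and a median log2 fold change of -0.09. Mir-16, which restrains cyclins, averaged 361.1 ± 23.95 CPM in PRMT1 and 384.1 ± 106.5 CPM in control libraries. Of the list with let-7 and lin-4, 3 families were found and tested, let-7, mir-10 and lin-4, with 0 past the test and a median of 0.05. Lin-4 is the nematode family whose human relatives are the miR-125 names, and it stood at 23.33, 28.28 and 13.50 CPM in PRMT1 libraries, against 16.67, 26.16 and 17.93 CPM in control libraries. The groups overlapped, with the highest and the lowest value both in PRMT1 libraries.

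Families tied to epithelium and fibrosis also did not pass. Of the epithelial list 4 families were found, and mir-8/mir-141/mir-200 alone was tested. Mir-203, of keratinocytes, had at most 43 counts, mir-205, of basal epithelium, at most 12, and mir-34 at most 6. The fibrosis list, mir-29, mir-30, mir-26 and mir-31, had 0 of 4 past the test, 3 above 0 and a median of 0.06. Mir-31 averaged 326.1 ± 27.94 CPM in PRMT1 and 308.7 ± 68.95 CPM in control libraries (log2 0.08, SE 0.24).

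The inflammation list held 3 tested families, all below 0 with a median of -0.38 and 0 past the test. Mir-146, which is induced by NF-kB and restrains its adaptor proteins, stood at 402.6, 322.6 and 405.4 CPM in PRMT1 libraries, against 443.0, 420.5 and 377.4 CPM in control libraries (log2 -0.13, SE 0.20). The groups overlapped, and with scaling by library size alone the value was 0.02. Mir-155, which promotes immune activation, stood at 25.27, 20.43 and 21.50 CPM in PRMT1 libraries, against 31.21, 29.14 and 27.06 CPM in control libraries (log2 -0.38, SE 0.23). These groups did not overlap on the TMM scale, and did so relative to all, named or mature counts. Mir-132 was at -0.87 on the log2 scale (SE 0.66), and at 0.23 once control library 2 was left out.

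Of the HOX cluster list, mir-10 and mir-196 were found and tested, at 0.05 (SE 0.25) and -0.17 (SE 0.27). Of the 37 numbers listed for the 14q32 cluster, 6 families were found (mir-299, mir-134, mir-154, mir-668, mir-665 and mir-654) and 0 tested, and of the chromosome 19 cluster 0 were found. Of families known from other cell types, 19 were found and 10 tested, with 0 past the test, 5 above and 5 below 0, and a median of 0.00. Among these, mir-126, an endothelial family, averaged 77.13 ± 12.47 CPM in PRMT1 and 69.97 ± 15.53 CPM in control libraries, mir-451, of red blood cells, 3.66 ± 0.182 CPM in PRMT1 and 3.63 ± 0.895 CPM in control libraries, and mir-9/mir-79, a neural family, 9.56 ± 1.78 CPM in PRMT1 and 9.81 ± 2.23 CPM in control libraries.

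Mature names summed by family gave the same count. Of 111 families with a tested sum, 0 passed, against 0% of 1432 rows, and 8 (7.21%) had an unadjusted edgeR p under 0.05, against 3.42% of those rows. These were mir-378, mir-196, mir-361, mir-383, mir-1307, mir-134, mir-25 and mir-1296. DESeq2 called 0 of the 111 and 5 of all 1432 rows, and limma-voom called 0 of each. The precursor family of mir-196 was at -0.17 on the log2 scale (SE 0.27) beside -0.71 (SE 0.29) for its mature names, and both values come from the same libraries.

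The 31 families without a mature human name of the same number in the tables held few counts. They included 13 families numbered like animal miRNAs. Some of these, such as mir-611, mir-492 and mir-922, have a human hairpin in RefSeq. The 13 had 840, 4204 and 1310 counts in PRMT1 libraries, against 1314, 1951 and 3018 in control libraries. Most of these counts were of mir-689, which had 652, 3291 and 1121 counts in PRMT1 libraries, against 1177, 1666 and 2445 in control libraries, with PRMT1 library 2 highest. Of 7 families known from invertebrates, mir-263 of flies held most counts, with 130, 16 and 82 in PRMT1 libraries, against 106, 71 and 23 in control libraries. The 9 plant families had 4, 14 and 11 counts in PRMT1 libraries, against 14, 8 and 9 in control libraries. The TAR family, named for an RNA element known from a virus, had 13, 46 and 5 counts in PRMT1 libraries, against 1, 0 and 0 in control libraries, and did not pass the filter on low counts. What sequence such reads had is not given in the tables.

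Families that were seen in 1 group alone were all near the limit of detection. The 13 families absent from every control library had at most 2 counts in a PRMT1 library, and the 24 absent from every PRMT1 library had at most 3 counts in a control library.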

How the data were processed

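Small RNA of 3 PRMT1 and 3 control libraries was sequenced and its reads filtered by BGI on the BGI-500, per the labels' design text. HISAT, Bowtie2, RSEM and GRCh37.p13 are named, without versions, per the submitters' processing notes. The tool behind the tables, the rule that gave a read to a precursor family or to a mature name, the treatment of strand and of reads that match several places are not given in the sources used here. As for the libraries, the labels' protocols name selection of messenger RNA or depletion of ribosomal RNA, although the tables hold classes of small RNA. Per the file headers, each table gives a deposited count of whole reads per row and a TPM. The deposited TPM is the CPM relative to the library total, without a length term, to within 0.005, and served as a check.

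All named rows of all classes were fitted together, since 4 summed rows (exon, intron, intergenic and repeat, 23.3% to 40.4% of counts) name no RNA. Rows passing filterByExpr of edgeR 4.0.16 in R 4.3.3 (minimum count 10), 1712 in number, were scaled with TMM and tested with the robust quasi-likelihood test, with Benjamini-Hochberg adjustment over all of them. The test was also tried on simulated data with large set changes and less spread between libraries than here. That trial therefore does not tell whether small changes would be found in these data. SEs were derived from the log2 fold change and its F statistic. Single values per library were compared with exact permutation tests in SciPy 1.17.1. Mature names were summed by number and fitted with all other rows. No pair of libraries was a copy: over the precursor families, chi-square was at least 113.8 for each degree of freedom.

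The families named are the 10 of highest mean CPM, the 4 of smallest p per direction, the 4 of highest and 4 of lowest ratio and every tested family of the lists. Others were chosen after their values were seen. The members and lists were chosen with earlier results of these data known. Alternatives were RLE, library size or mature-row scaling, other filters, DESeq2 1.42.0, limma-voom 3.58.1, a replicate block, precursor rows alone and omission of each library. Grouping mature names by the deposited family label was added after seeing the data. Hairpin sequences are from RefSeq on GRCh38.p14, which is not the build of the processing notes, and were used only for display.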

Additional observations from a re-analysis of the deposited data

How the results depend on the processing

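The count of 0 precursor families past the test, and of 0 mature sums, was the same under every scaling, filter and test tried, with each library left out and with the replicate block, where 0 precursor families had an unadjusted p under 0.05. The count of precursor families was also 0 with precursor rows alone, a setting not run for mature sums. Replicate numbers were not taken as pairs. Deviations of same-numbered libraries correlated at 0.136, 0.285 and 0.0772, against -0.236 to 0.165 for libraries of different number. PRMT1 libraries 1 and 2 correlated best with their own number, while PRMT1 library 3 correlated better with control library 1 (0.165). Whether the numbers mark pairs was not tested. The difference in precursor share, -0.0243 percentage points, was 0.0668 as a percentage of mature counts, -0.0635 without the most abundant family, -0.817 with the mir-21 family, which was high in control library 2, and -0.111 to 0.0328 when each library was left out. Its replicate block left it at -0.0243 (exact permutation p = 0.75). The difference in log2 ratio, 0.08, was -0.0151 as a median over families, 0.0750 by the deposited family label, and 0.0206 to 0.173 when each library was left out.

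Of 36 named families with a fold change, 13 changed sign under another scaling or test. With library size alone the log2 fold change was 0.04 for mir-27 and mir-19, 0.15 for mir-8/mir-141/mir-200 and mir-9/mir-79, 0.05 for mir-181, 0.13 for mir-138 and let-7, 0.07 for mir-92, 0.02 for mir-196 and mir-146, 0.11 for mir-16, 0.10 for mir-17 and 0.25 for mir-499. Scaled on mature rows it was 0.01 for mir-8/mir-141/mir-200, 0.02 for mir-138 and mir-9/mir-79, and 0.05 for mir-499. With the replicate block it was 0.00 for let-7 and 0.13 for mir-499. That of mir-499, -0.01, was also 0.01 with RLE and DESeq2 and 0.15 with limma-voom. In 20 families the sign changed when a library was left out, over ranges of mir-30 -0.17 to 0.31, mir-27 -0.25 to 0.11, mir-8/mir-141/mir-200 -0.15 to 0.20, mir-24 -0.78 to 0.18, mir-181 -0.22 to 0.13, mir-138 -0.10 to 0.11, mir-92 -0.30 to 0.10, mir-137 -6.80 to 0.35, let-7 -0.31 to 0.36, mir-374 -0.52 to 0.27, mir-10 -0.02 to 0.26, lin-4 -0.12 to 0.43, mir-16 -0.14 to 0.16, mir-17 -0.23 to 0.14, mir-19 -0.36 to 0.28, mir-31 -0.01 to 0.26, mir-132 -1.15 to 0.23, mir-9/mir-79 -0.13 to 0.15, mir-451 -0.05 to 0.23, mir-499 -0.21 to 0.59. The causes were not tested. Families under 10 counts, 84 of 156, are too shallow for a comparison.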
